A study of Mus musculus with 6 samples.

Results

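A set of 10 genes that mark the lining of blood vessels, *Pecam1*, *Cdh5*, *Kdr*, *Flt1*, *Tek*, *Tie1*, *Emcn*, *Vwf*, *Cldn5* and *Eng*, was followed in brown adipose tissue (BAT) of mice without miR-22. They were chosen by symbol, with earlier results of these data known. Matching the RefSeq accessions of the array to these symbols gave 10 probes for the 10 genes, 1 probe each, among 23462 genes with a probe and 56605 non-control probes. The samples were BAT from 3 male wild-type (WT) mice and 3 male mice with a constitutive knockout of miR-22 (miR-22 KO), all 8 weeks old by the study's methods, and each mouse had an array of its own. The deletion is present in every cell of the KO mice, so that endothelial cells lack miR-22 along with adipocytes. The labels name no treatment in either group. The description of the series mentions a flow separation step but names no cell population or gate, and the values are taken here as those of the tissue.

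Endothelial cells line all vessels, and BAT holds a dense capillary bed that brings oxygen, glucose and fatty acids to the heat-producing adipocytes. The growth factor VEGF-A, which adipocytes secrete, acts on these cells through KDR, while FLT1 binds the same ligand with little signaling of its own. Angiopoietins act through TEK with TIE1 as its partner, and adhesion molecules such as VE-cadherin and claudin-5 hold neighbouring endothelial cells together. In RNA of a whole tissue, a lower level of such a marker through fewer endothelial cells and through less RNA per endothelial cell cannot be told apart.

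The microRNA that the KO mice lack is shown here because its absence is the difference between the groups. Both mature strands lie on the plus strand of chromosome 11 in GRCm38.p6, the 3p strand at chr11:75463772-75463793 and the 5p strand at chr11:75463734-75463755, and both sequences are those of RefSeq, written 5′ to 3′ with the seed, bases 2 to 8, in capitals.
mmu-miR-22-3p: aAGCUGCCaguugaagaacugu
mmu-miR-22-5p: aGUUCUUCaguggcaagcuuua
A microRNA represses a messenger RNA by pairing mainly through its seed. Sites for these seeds in the messenger RNAs of the 10 genes were not searched.

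Levels are given as scaled log2 signal, the log2 of the background-subtracted spot intensity minus that of the 75th percentile over non-control spots on the same array, so that a difference of 1 is a doubling. Mice are numbered 1 to 3 within a group in the order of their labels. Of the non-control spots, 55.8 to 66.5% were well above background on each array. The scanner software marked 4.87 to 17.1% of spots as uneven or as outliers, with the highest shares in WT mouse 3 and KO mouse 1, and marked spots were left out of the tests unless stated. *Mir22hg*, the host gene of miR-22, had 1.20, 1.69 and 1.22 in the WT mice against 2.02, 2.11 and 2.23 in the KO mice. It was higher in KO by 0.75 (SE 0.18, adjusted p = 0.108, limma), and its probe does not measure the mature microRNA, so it is no check of the deletion. All 14 brown adipocyte markers were well above background on at least 3 arrays. The amount of skeletal muscle RNA differed widely between mice, with a mean over 20 muscle markers of 2.49, 1.75 and -3.93 in the WT mice against -0.14, 3.53 and 1.61 in the KO mice.

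The endothelial markers were readily measured in every mouse. All 60 values, 10 genes in 6 mice, were well above background. The scanner software marked 8 of them, which left 9 genes with at least 2 usable values per group, and *Cdh5* could be compared only with its marked values kept. No marker passed a test in either direction. At an unadjusted p under 0.05 in limma, 0 of 9 markers were lower in KO, where 8.82% of the 14711 genes tested were, and 0 of 9 were higher, where 10% of all genes were. With all probes as the unit the counts were also 0 of 9 lower, beside 6.74% of 31238 probes, and 0 of 9 higher, beside 9.7%. With the marked values kept, 0 of 10 were lower beside 11.1% of 16110 genes, and 0 of 10 were higher beside 9.47%. Run on the same values, the methods' t-test likewise called 0 of 9 at an unadjusted p under 0.05. After Benjamini-Hochberg adjustment in limma no marker was called, beside 0.184% of all genes.

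The differences between the groups were small for most markers. The absolute log2 difference had a median of 0.126 over the 9 markers and of 0.255 over all genes tested, with median standard errors of 0.170 and 0.192. Of the 9 markers, 6 were below 0, as were 52.9% of all genes. The median log2 difference was -0.12 for the markers and -0.03 for all genes, but the median of the markers was 0.05 under quantile normalization and 0.05 in the processed values of the authors. Apart from *Pecam1*, the 95% intervals of the fold change ran from 0.585 at the lowest, for *Eng*, to 1.40 at the highest, for *Tek*.

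**Figure D1:**
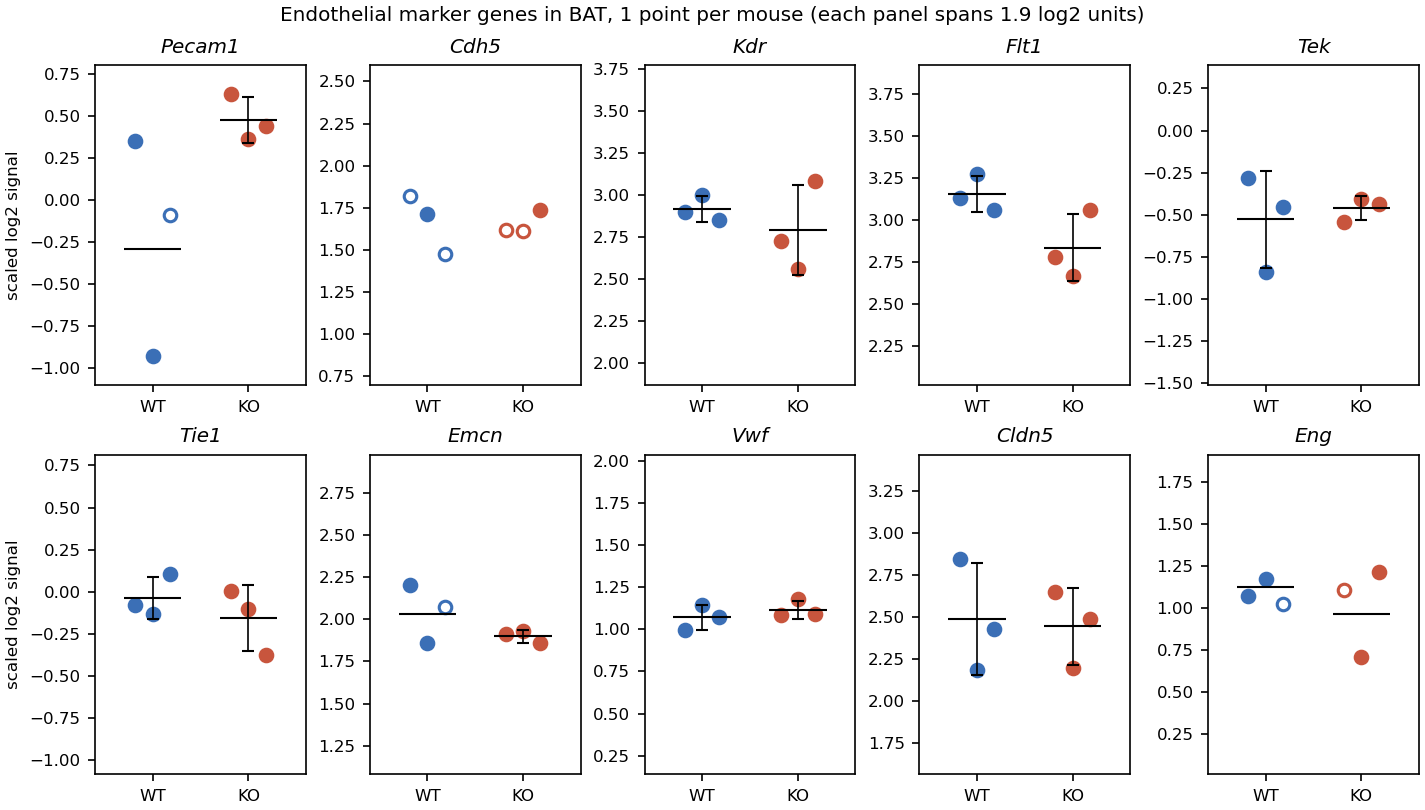
Scaled log2 signal (y axis) of each endothelial marker in each WT and KO mouse (x axis), with mice 1 to 3 from left to right. Filled points entered the test and open points are the 8 marked spots; black lines are means of filled points where there are at least 2, and error bars are SDs where there are 3. The groups overlap in each panel except *Pecam1*, where the lowest KO mouse, at 0.36, lies just above the highest WT mouse, at 0.35.

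Among the adhesion and junction genes, *Pecam1*, *Cdh5* and *Cldn5*, only *Pecam1* separated the groups. *Pecam1* (chr11:106654213-106715281) encodes CD31, an adhesion molecule at the contacts between endothelial cells that is also made by platelets and leukocytes. Its level was 0.35, -0.93 and -0.09 in the WT mice against 0.63, 0.36 and 0.44 in the KO mice, the third WT value being from a marked spot. All KO mice lay above all WT mice, WT mouse 1 by a narrow margin, and WT mouse 2 was far below the others. The log2 difference without the marked spot was 0.76 (SE 0.37, 95% interval -0.16 to 1.68), a 1.70-fold higher level with an adjusted p of 0.333 in limma. With the marked spot it was 0.70 (SE 0.31, adjusted p = 0.261). The difference was between 0.67 and 0.82 in 15 alternatives, none of which passed an unadjusted p of 0.05, but too few unmarked values were left to test it without WT mouse 1 or WT mouse 2. With the marked spot kept, an alternative added after the values were seen, it was 0.35 without WT mouse 2 (unadjusted p = 0.120 in limma) and 0.98 without WT mouse 1 (unadjusted p = 0.0115, adjusted p = 0.232 in limma), so that its size differed with the WT mouse left out.

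Markers of the blood cells that also make *Pecam1* were measured beside it. The mean over 9 platelet and megakaryocyte markers was -2.42, -2.27 and -2.42 in the WT mice against -1.80, -2.23 and -2.17 in the KO mice, and 3 of the 8 that could be tested were higher at an unadjusted p under 0.05 in limma, beside 10% of all genes and against 1 of 8 under quantile normalization and in the processed values. They were led by *Ppbp*, a platelet chemokine, at 0.99 (SE 0.16, adjusted p = 0.0649). Every KO mean lay above every WT mean. The mean over 13 macrophage markers was 0.995, 1.02 and 1.15 in WT and 1.15, 1.41 and 1.24 in KO, with WT mouse 3 at the level of KO mouse 1. Of 11 tested, 2 were higher, *Fcgr1*, an Fc receptor, at 1.04 (SE 0.14, adjusted p = 0.0508) and *C1qb*, a complement subunit, at 0.41 (SE 0.14, adjusted p = 0.206). *Vwf*, which platelets carry as well, had a log2 difference of 0.05. The part of these cells in the *Pecam1* values was not tested.

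*Cdh5* (chr8:104101613-104144504), which encodes VE-cadherin, the adhesion molecule of endothelial adherens junctions, had the difference nearest to 0 on this scale, but not under quantile normalization, where it was 0.09. The WT mice had 1.82, 1.71 and 1.47 and the KO mice 1.62, 1.61 and 1.74, with 4 of the 6 spots marked. The KO mice lay within the range of the WT mice. With marked spots kept, the log2 difference was -0.01 (SE 0.14, 95% interval -0.35 to 0.32, adjusted p = 0.965 in limma), which limits the change to between 0.785-fold and 1.25-fold on these values.

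*Cldn5* (chr16:18776847-18778262) encodes claudin-5, the main claudin of endothelial tight junctions. It had 2.84, 2.19 and 2.43 in WT and 2.65, 2.20 and 2.49 in KO. The spread within each group was wide, with an SD of 0.33 in WT and 0.23 in KO, and with WT mouse 2 and KO mouse 2 low and mouse 1 of each group high. The log2 difference was -0.04 (SE 0.21, 95% interval -0.55 to 0.46, adjusted p = 0.922 in limma), and its sign turned to 0.12 under quantile normalization.

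The VEGF receptors *Kdr* and *Flt1* were both low in KO mice 1 and 2, and not in KO mouse 3, on this scale. *Kdr* (chr5:75932827-75979072), which encodes VEGF receptor 2, the main signaling receptor, had 2.90, 3.00 and 2.85 in the WT mice against 2.73, 2.56 and 3.08 in the KO mice. KO mice 1 and 2 were below every WT mouse, but KO mouse 3 was above them all. The WT mean was 2.92 ± 0.08 and the KO mean 2.79 ± 0.27 (SD, n = 3 each). The log2 difference was -0.13 (SE 0.17, 95% interval -0.53 to 0.28, adjusted p = 0.703 in limma), and it was 0.06 under quantile normalization and in the processed values, so that its direction depends on the scaling.

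*Flt1* (chr5:147561604-147726438) encodes VEGF receptor 1, which binds VEGF-A and placental growth factor. The WT mice had 3.13, 3.27 and 3.06 and the KO mice 2.78, 2.67 and 3.06. KO mice 1 and 2 were again the lowest, and KO mouse 3 met the lowest WT mouse. The mean was 3.16 ± 0.11 in WT and 2.84 ± 0.20 in KO (SD, n = 3 each), and the log2 difference of -0.32 (SE 0.16, 95% interval -0.69 to 0.05) was the lowest of the 9 markers tested, with an adjusted p of 0.321 in limma. It stayed below 0 in all 18 alternatives but ranged from -0.43 to -0.12, the latter under quantile normalization. Without KO mouse 3 it was -0.43 with an unadjusted p of 0.0303, and an adjusted p of 0.228 in limma. Within the lower row of the slide, which holds WT mouse 3 and the KO mice, it was -0.22.

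In KO mice 1 and 2, where these receptors were low, the arrays were bright and the adipocyte markers were low. The 75th percentile of intensity was 1984, 1435 and 1602 for WT and 2538, 2633 and 1599 for KO, so that the arrays of KO mice 1 and 2 were the brightest. The mean over 12 adipocyte markers was 3.33, 3.67 and 3.33 in WT and 3.05, 3.16 and 3.60 in KO, which ran lowest in the same 2 mice. Their part in the *Kdr* and *Flt1* values was not tested.

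A difference between 2 genes taken within each mouse does not depend on the value by which an array is scaled. *Kdr* minus *Flt1* was -0.24, -0.27 and -0.21 in the WT mice against -0.05, -0.11 and 0.02 in the KO mice. The mean of this difference was -0.24 ± 0.03 in WT and -0.05 ± 0.07 in KO (SD, n = 3 each), without overlap, and KO exceeded WT by 0.19, so *Flt1* was lower relative to *Kdr* in every KO mouse than in any WT mouse. A two-sided exact permutation test gave p = 0.1, the smallest that 3 mice against 3 allow. Such a separation is common: of the 45 pairs of the 10 markers, 10 pairs, or 22.2%, did not overlap between the groups, where 31.8% of all gene pairs did not, and 6 of the 10 involved *Pecam1*. *Flt1* minus *Vwf* was also lower in every KO mouse than in any WT mouse, by -0.36 on average, as was *Flt1* minus *Eng*, by -0.24.

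The angiopoietin receptors *Tek* and *Tie1* showed no separation of the groups. *Tek* (chr4:94739086-94874976) encodes the receptor also called TIE2, which keeps vessels quiescent when bound by angiopoietin-1. It had -0.28, -0.84 and -0.46 in WT and -0.54, -0.41 and -0.43 in KO. The KO mice were close together and inside the wider range of the WT mice, in which mouse 2 was low. The log2 difference was 0.07 (SE 0.18, 95% interval -0.35 to 0.48, adjusted p = 0.851 in limma).

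*Tie1* (chr4:118471191-118489849), the receptor that pairs with TEK and modulates its signal, had -0.08, -0.13 and 0.11 in WT and 0.01, -0.11 and -0.38 in KO. KO mouse 3 was the lowest and WT mouse 3 the highest, with the rest in between. The log2 difference was -0.12 (SE 0.16, 95% interval -0.49 to 0.25, adjusted p = 0.686 in limma). *Tek* minus *Tie1* within each mouse differed between the groups by 0.19 with overlap (two-sided exact permutation p = 0.4).

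*Emcn*, *Vwf* and *Eng* complete the markers. *Emcn* (chr3:137341062-137431069) encodes endomucin, a sialomucin on the surface of capillary and venous endothelium. It had 2.20, 1.86 and 2.07 in the WT mice, the last from a marked spot, and 1.91, 1.93 and 1.86 in the KO mice. The KO mice were at the lower end of the WT range, next to WT mouse 2. The log2 difference was -0.13 (SE 0.17, 95% interval -0.55 to 0.28, adjusted p = 0.690 in limma).

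*Vwf* (chr6:125552948-125686679), the gene of the clotting factor that endothelial cells store and release, was the most precisely measured of the markers. It had 0.999, 1.15 and 1.07 in WT and 1.08, 1.18 and 1.09 in KO. Every mouse was near every other, and the groups overlapped. The mean was 1.07 ± 0.07 in WT and 1.12 ± 0.05 in KO (SD, n = 3 each), and the fold change was 1.03 (SE 0.12 on the log2 scale, 95% interval 0.841 to 1.27, adjusted p = 0.855 in limma).

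*Eng* (chr2:32646595-32682669) encodes endoglin, a co-receptor for BMP9 and TGF-beta on endothelial cells. The WT mice had 1.07, 1.17 and 1.02 and the KO mice 1.11, 0.71 and 1.22, with WT mouse 3 and KO mouse 1 from marked spots. KO mouse 2 was the only one that stood apart, below the others. The log2 difference over the unmarked values was -0.16 (SE 0.24, 95% interval -0.77 to 0.45, adjusted p = 0.737 in limma), and it was -0.08 with the marked values and -0.05 with the muscle markers as a covariate.

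**Figure D2:**
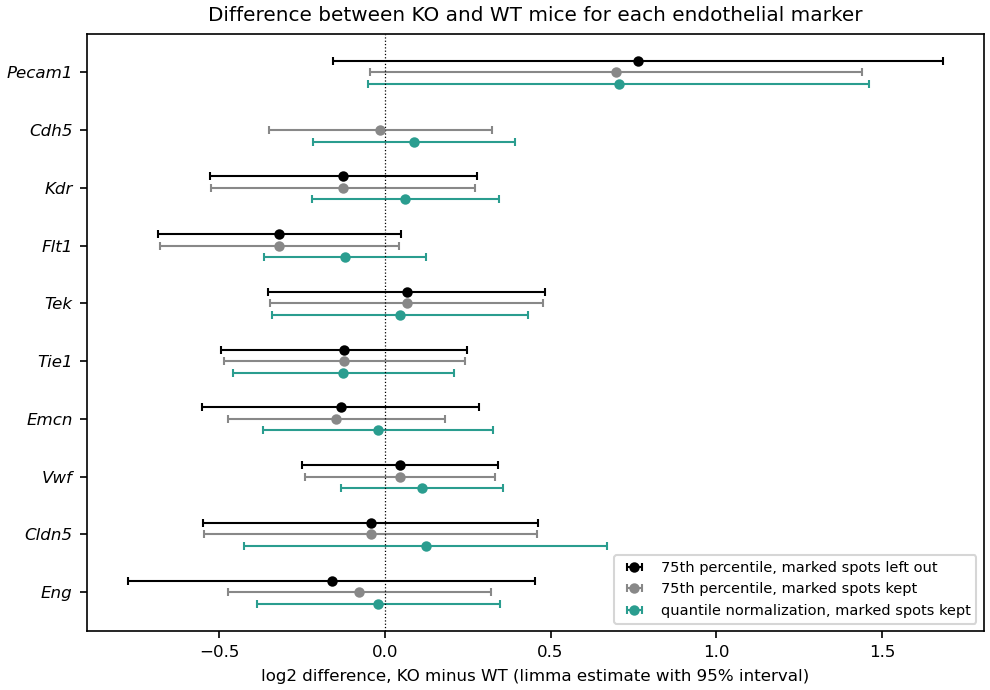
Log2 difference, KO minus WT (x axis), of each endothelial marker (y axis) as estimated by limma with its 95% interval, under 3 ways of treating the signal. Every interval spans 0; *Pecam1* is the farthest to the right at 0.76 and *Flt1* the farthest to the left at -0.32, and *Cdh5*, *Kdr* and *Cldn5* change sign under quantile normalization.

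The markers did not rise and fall together over the 6 mice. Of the 6 genes without a marked spot, 0 had groups that did not overlap in either direction, where 14.7% of the 11576 genes of that kind were lower and 14.2% were higher in KO without overlap. The mean of the 10 markers, each centred on its own mean, was 0.13, -0.12 and -0.01 in the WT mice against 0.03, -0.09 and 0.05 in the KO mice, so that WT mice held both the highest and the lowest value. Under quantile normalization these means were 0.11, -0.19 and -0.05 in WT and 0.11, -0.01 and 0.03 in KO. The correlation over the 6 mice, which mix both genotypes, averaged 0.01 over the 45 pairs of markers and 0.03 over all pairs of 9569 genes, and 23 of the 45 pairs were above 0.

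A pair of patterns was seen among the markers after the values were known. *Kdr*, *Flt1* and *Eng* ran together, with a Pearson's r of 0.877 for *Kdr* and *Eng*, 0.862 for *Kdr* and *Flt1* and 0.705 for *Flt1* and *Eng*, being lowest in KO mouse 2. *Pecam1*, *Tek*, *Emcn* and *Cldn5* were lowest or nearly lowest in WT mouse 2, with an r between 0.177, for *Emcn* and *Pecam1*, and 0.780, for *Tek* and *Pecam1*. *Vwf* ran against *Cldn5* at -0.930 and against *Emcn* at -0.751. These values describe 6 arrays that share 1 slide, and no test was made of them. The genes outside the list whose levels were most like the mean of the markers, among 9563 genes compared by Pearson's r over the 6 mice, were *R3hdm4* at 0.960, *Hal* at 0.958, *Trim16* at 0.947, *Nap1l4* at 0.941 and *Fbxl5* at 0.938.

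**Figure D3:**
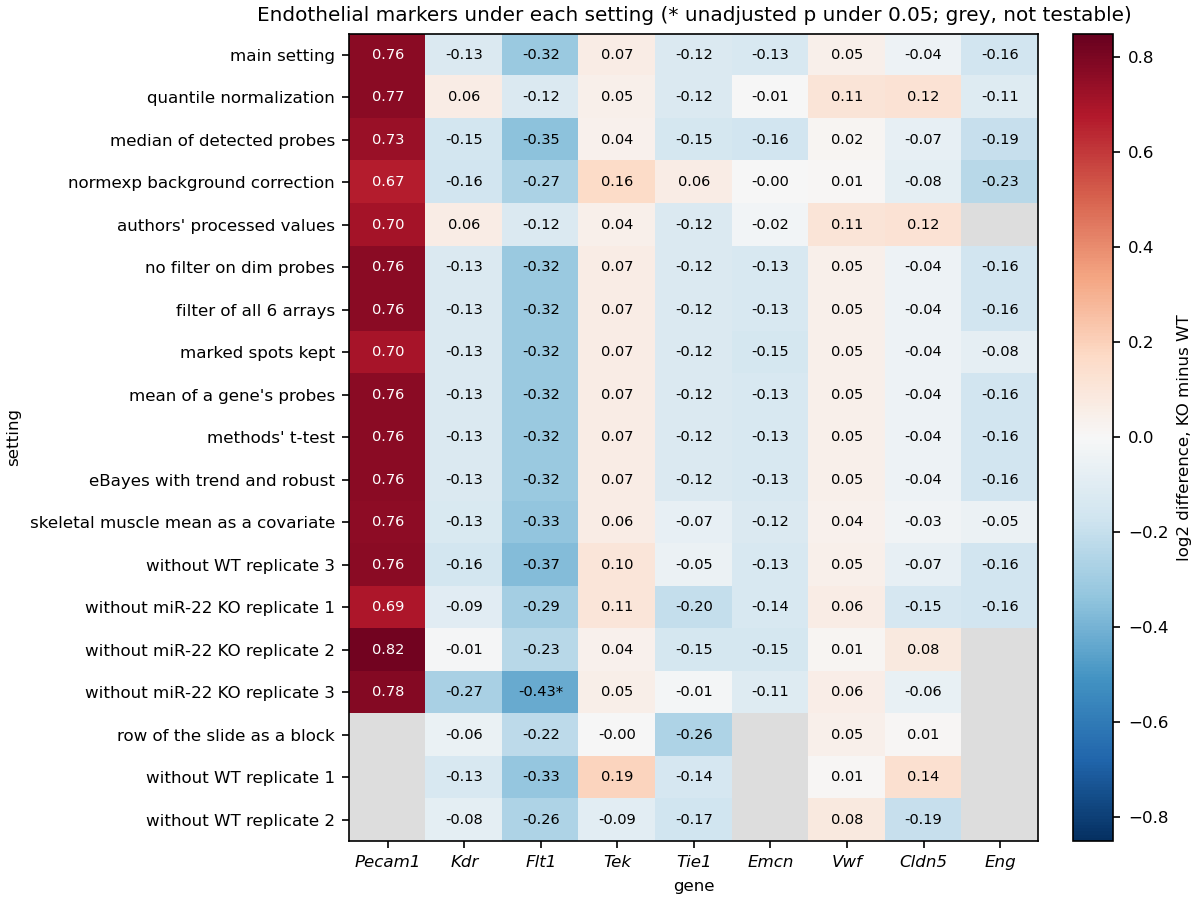
Log2 difference, KO minus WT, of the 9 markers that could be tested (x axis) under the main setting and each of 18 alternatives (y axis), in red where KO was higher and blue where it was lower, with grey where too few values were left. *Pecam1* stays between 0.67 and 0.82 and *Flt1* between -0.43 and -0.12, and the only entry with an asterisk is *Flt1* without KO replicate 3.

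The promoters of the markers were read for AGGAAG, which holds the core that ETS transcription factors bind. ETS factors are known to act at many endothelial genes. Other sequences with that core were not searched. Of the 10 genes, 7 had a RefSeq promoter entry on GRCm38.p6. The letters AGGAAG, on either strand, stood within the 250 bases before the start in 4 of these 7 and in 29.5% of the 32851 entries of all genes. They were found in *Flt1*, *Tie1*, *Emcn* and *Eng* and not in *Kdr*, *Tek* or *Cldn5*. The windows of 50 bases that hold the match nearest to the start are shown because these genes share the letters whether or not their levels ran together, and capitals mark the match, which lies 53, 219, 93 and 6 bases before the start of the entry. For *Flt1* and *Emcn* the entry starts inside the gene span given above and not at its outer end.
*Flt1* at chr5:147726037-147726086, minus strand: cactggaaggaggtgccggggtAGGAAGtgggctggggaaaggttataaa
*Tie1* at chr4:118490041-118490090, minus strand: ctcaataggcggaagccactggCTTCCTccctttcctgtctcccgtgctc
*Emcn* at chr3:137340963-137341012, plus strand: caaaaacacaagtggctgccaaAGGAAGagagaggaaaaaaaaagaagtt
*Eng* at chr2:32646545-32646594, plus strand: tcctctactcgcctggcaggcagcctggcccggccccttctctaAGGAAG
A match is a description of the letters and not a binding site. *Kdr*, whose level ran with those of *Flt1* and *Eng*, has no match in this window.

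Around the markers, 180 other genes of the vessel wall and of the pathways the markers belong to were listed in 13 lists, and 146 of them could be tested. At an unadjusted p under 0.05 in limma, 7 were lower in KO, or 4.79%, beside 8.82% of all genes, and 17 were higher, or 11.6%, beside 10% of all genes, and none passed after adjustment. Of the VEGF pathway 12 of 14 genes were tested, and 2 were higher, with a median of 0.00. *Pgf*, the gene of placental growth factor, a ligand of FLT1, had -0.94, -1.60 and -1.59 in WT and 0.48, -0.24 and 0.27 in KO. Every KO mouse was above every WT mouse, and the log2 difference was 1.54 (SE 0.26, adjusted p = 0.0671, and 0.0161 to 0.365 over the 18 alternatives). *Plcg2*, a phospholipase, was higher by 0.54. *Apln*, a peptide of sprouting endothelium, was higher by 1.04 (SE 0.26, adjusted p = 0.125), and its receptor gene *Aplnr* by 0.75 (SE 0.25, adjusted p = 0.194).

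The other lists are read beside the same shares of all genes, 8.82% lower and 10% higher. Of 25 tested among 30 other pan-endothelial genes, 4 were higher and 0 lower, with a median of 0.05. Under quantile normalization 8 of 25 were higher, beside 1176 of 14711 genes, with a median of 0.14. In the processed values 8 of 24 were higher, beside 1146 of 13383 genes, with a median of 0.12. With normexp 3 were higher and 1 lower, and without a filter on dim probes 2 were higher. Without WT mouse 1 it was 2 of 20 higher, as it was without WT mouse 2, and without KO mouse 2 it was 6 of 21. With the slide row as a block 19 of these genes could be tested, with a median of 0.09. The Notch list had 5 of 11 higher and 0 lower, with a median of 0.29, among them *Jag2*, a ligand, by 0.64 and *Rbpj*, the transcription factor of the pathway, by 0.42. Its count was 3 with normexp, in the processed values and with the methods' t-test, 2 without WT mouse 1 and 1 with the slide row as a block, and its median was 0.12 under quantile normalization and in the processed values. Of the angiopoietin and Tie genes 1 of 8 was higher, *Dok2*, an adaptor, by 0.59. Of the TGF-beta and BMP genes 1 of 13 was higher, *Bmp4*, a ligand, by 1.07. The transcription factors had 1 of 18 higher, *Sox7*, by 0.43. With marked spots kept *Sox7* was higher by 0.30 (unadjusted p = 0.0966, limma), and it passed in 10 of 15 alternatives. Of the junction genes 3 of 13 were higher, among them *Marveld3*, a tight junction gene, by 0.52, and *Cd99l2* fell by 0.41. The count higher was 1 under quantile normalization and with normexp, 0 in the processed values, and 4 of 15 with marked spots kept. *Marveld3* was dim, at -5.53, -5.35 and -5.22 in WT and -5.15, -4.86 and -4.52 in KO. It passed in 7 of 17 alternatives, with differences from 0.07 to 0.67, and *Cd99l2* passed in 9 of 15.

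Of 16 genes of fatty acid uptake by capillaries 9 could be tested, and none passed an unadjusted p of 0.05. With marked spots kept 15 could be tested, and 1 was higher, beside 9.47% of 16110 genes. The median was -0.10 over these 15, against 0.03 over the 9. Under quantile normalization 3 of the 9 were higher, beside 1176 of 14711 genes. The processed values also had 3 of 9 higher, beside 1146 of 13383 genes, while 1 was lower with normexp. None of 6 lymphatic genes or 8 angiogenesis inhibitors passed in the main setting. *Ackr3*, a chemokine scavenger, fell by 0.95 as the only one of 8 leukocyte adhesion genes that passed. Among 11 arterial and venous genes 2 were lower and 1 higher. *Cxcl12*, a chemokine, fell by 0.56, *Bmx*, a kinase of arterial endothelium, fell by 0.54, and the higher one was *Aplnr*, and none passed with the slide row as a block. Of the mural cell genes, which mark the pericytes and smooth muscle around the vessels, 3 of 13 were lower and 0 higher, with a median of -0.18. Under quantile normalization 2 were lower and 1 higher with a median of -0.03, and with the slide row as a block 1 was lower. *Cspg4*, the pericyte proteoglycan NG2, had 1.74, 2.13 and 1.83 in WT and 1.04, 1.26 and 1.26 in KO, all KO mice below all WT mice, and fell by 0.71 (SE 0.16, adjusted p = 0.0997, and 0.0366 to 0.552 over the 18 alternatives). Whether the mural or the Notch list differed from the endothelial markers was not tested.

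**Figure D4:**
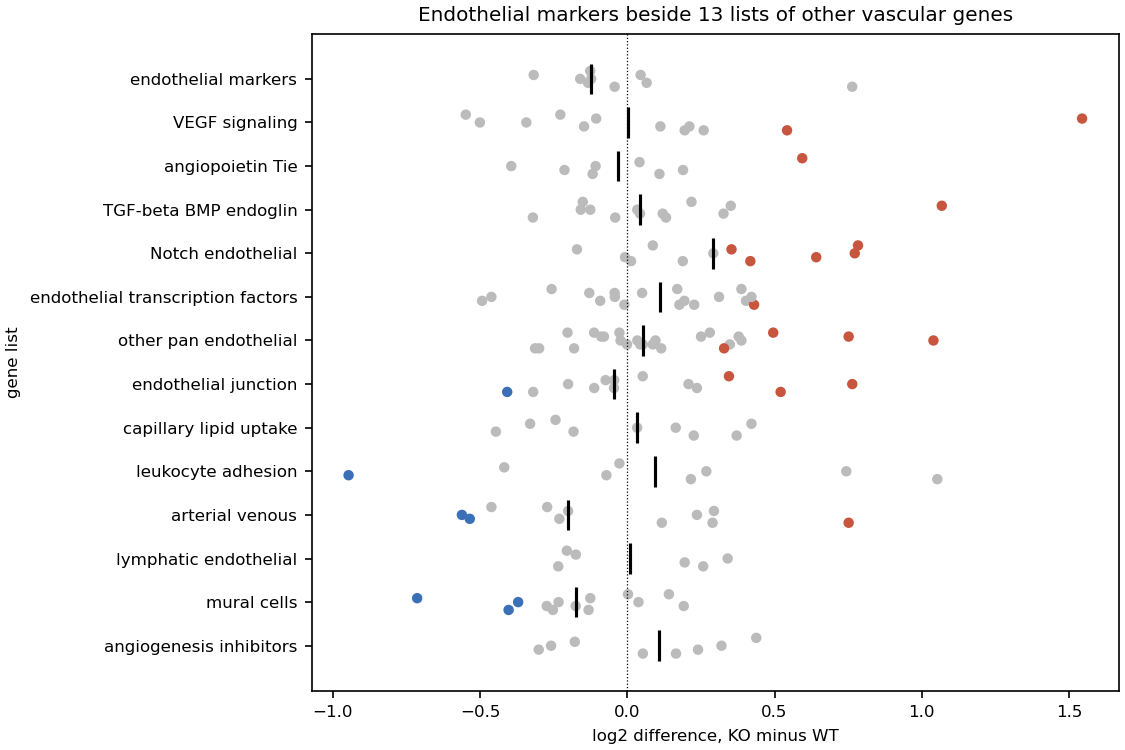
Log2 difference, KO minus WT (x axis), of the 9 endothelial markers tested and of the genes tested in each of 13 lists of other vascular genes (y axis), 1 point per gene, with the median of each list as a black bar. Red and blue points passed an unadjusted p under 0.05 in limma as higher or lower, and grey points did not; no endothelial marker is coloured, and the point farthest to the right is *Pgf* at 1.54.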

How the data were processed

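BAT RNA from 3 WT and 3 miR-22 KO mice was hybridized to 1-colour Agilent arrays. The authors deposited scanner intensity values, which per the file headers and the submitters' notes (Agilent Feature Extraction 10.7) are background-subtracted spot signals without scaling between arrays, and a table of processed log2 values that the authors deposited for 27497 probes, which holds 8 of the 10 markers and whose normalization is not given in the sources used here. Signals were divided by each array's 75th percentile and taken as log2. Testing required a signal well above background on 3 or more arrays and 2 or more unmarked values in each group, and the brightest testable probe stood for a gene. Probes were matched to genes through RefSeq (GRCm38.p6). WT and KO were compared in R 4.3.3 by limma 3.58.1 (lmFit, eBayes), with data.table (version 1.17.8) to read the files. The test was two-sided, at the methods' threshold of 0.05 on the unadjusted p and with Benjamini-Hochberg adjustment over all genes. The SAM test of the methods was not run. The steps were tested on simulated data.

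The markers and gene lists were chosen with earlier results of these data known. Of each companion list, genes past the adjusted threshold, or otherwise up to 2 in each direction with the smallest unadjusted p, were named. The alternatives comprised quantile normalization, the median of detected probes as the scale, normexp with an offset of 50, the processed values, no filter, a filter of all 6 arrays, marked spots kept, the mean of a gene's probes, eBayes with trend and robust, the methods' t-test, the slide row as a block, the muscle marker mean as a covariate, and leaving out each array. Leaving out each array with marked spots kept was added after the data were seen. The number of arrays limits the precision. The labels do not say whether the mice came from separate litters.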

Additional observations from a re-analysis of the deposited data

How the results depend on the processing

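Of the 18 alternatives listed with the processing, only leaving out KO mouse 3 gave a marker an unadjusted p under 0.05, where *Flt1* was lower, so that the count of genes or probes lower ranged from 0 to 1 over the arrays left out and the count higher was 0 throughout. The median log2 difference of the markers was 0.0452 under quantile normalization, -0.0027 with normexp and 0.0533 in the processed values, and -0.1393 to 0.0018 when each array was left out, the highest being without KO mouse 2. Signs turned for markers near 0. *Kdr* was 0.0616 under quantile normalization and in the processed values. *Tie1* was 0.0636 with normexp. *Tek* was -0.0045 with the slide row as a block, and -0.0926 to 0.1889 when each array was left out. *Cldn5* was 0.123 under quantile normalization, 0.1232 in the processed values and 0.0132 with the row block, and -0.1937 to 0.1359 when each array was left out. *Eng* was -0.1797 to 0.0735 with marked spots kept and each array left out, which was added after the data were seen, and *Cdh5* was -0.01 with marked spots kept and 0.09 when they were quantile normalized. The cause was not tested. Of the other named genes, *Pgf*, *Apln*, *Jag2*, *Dok2*, *Cspg4*, *Ppbp* and *Fcgr1* had an unadjusted p under 0.05 in all 18 alternatives, and the rest lost it in 87 combinations of gene and alternative, none with a turned sign. An adjusted p under 0.05 was reached in at least 1 alternative by *Fcgr1* (lowest 0.0151), *Pgf* (0.0161), *Ppbp* (0.0161), *Mbp* (0.0362) and *Cspg4* (0.0366). Without a filter on dim probes the median of all genes was 0.136, against -0.03 with it. The row block rests on WT mouse 3 as the only WT mouse in its row, and *Pecam1*, *Emcn* and *Eng* could not be tested in it. No paired analysis was possible because no label ties a WT mouse to a KO mouse, and the numbers 1 to 3 used here only name the mice.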

Other observations

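Beside the vessel wall, lists of other cells of BAT were measured in the same fit. Over all genes, 8.82% were lower and 10% higher at an unadjusted p under 0.05 in limma. Lymphocyte markers had 2 of 6 tested higher in KO and 0 lower, with a median of 0.44 that was 0.25 under quantile normalization, and 0 passed with the slide row as a block or with the mean of a gene's probes. The higher ones were *Cd4*, by 0.58 (SE 0.14, adjusted p = 0.108, limma) and *Ptprc*, the pan-leukocyte phosphatase CD45, by 0.53 (SE 0.16, adjusted p = 0.171). The Schwann cell markers had 2 of 7 lower and 0 higher, and all 7 were below 0, with a median of -0.31. With the slide row as a block 0 passed and the median was 0.04, and the list mean of WT mouse 3, at 0.57, was below that of KO mouse 2, at 0.60. *Mbp*, a myelin protein, had 1.81, 1.58 and 1.45 in WT and 1.01, 0.93 and 0.91 in KO and fell by 0.66 (SE 0.14, adjusted p = 0.0962), with differences from -0.74 to -0.11 over the 18 alternatives. Fibroblast markers had 1 of 7 lower, *Col1a1*, which fell by 0.38 (SE 0.15, adjusted p = 0.235). *Col1a1* passed in 10 of 18 alternatives, with differences from -0.48 to -0.20. Under quantile normalization 0 of 7 fibroblast markers were lower, and in the processed values 0 of 6. Of 14 brown adipocyte markers 9 could be tested. Too few unmarked values were left for *Ucp1*, *Cidea*, *Ppargc1a*, *Dio2* and *Cox8b*. The median was -0.02 over the 9, and -0.35 over all 14 with marked spots kept, where 2 were lower beside 11.1% of 16110 genes. Of the 9, 2 were lower, *Otop1*, a proton channel, which fell by 0.63 (SE 0.17, adjusted p = 0.136), and *Cox7a1*, a subunit of cytochrome oxidase, which fell by 0.78 (SE 0.28, adjusted p = 0.239). With marked spots kept, *Cox7a1* fell by 0.50 (unadjusted p = 0.0791, limma), and it passed in 7 of 13 alternatives. None of the 7 adipocyte markers that could be tested and none of 17 skeletal muscle markers passed an unadjusted p under 0.05 in limma. With marked spots kept all 12 adipocyte markers could be tested and none passed, and their median was -0.26, against 0.04 over the 7.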
